A study of Mus musculus with 2 samples.

Results

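Collagens are the triple-helical proteins of the extracellular matrix, and mouse build mm10 carries 44 protein-coding genes named Col, a number, a and a number, of 21911 protein-coding symbols in all. These 44 genes, chosen by name alone, were followed through DNase-seq of gastrocnemius, a calf muscle. DNase I cuts DNA that is not packed tightly around nucleosomes, so clusters of cut ends (peaks) mark open chromatin, and short uncut stretches inside a peak (footprints) mark bases that may be shielded by a bound protein. The 2 libraries are biological replicates of 1 group, gastrocnemius tissue from males of the B6CASTF1/J strain at an age of 14 days, a first-generation cross of C57BL/6 with CAST. No treatment or genotype was contrasted, so no test between groups exists and every value below is a description, given as replicate 1 and then replicate 2. The number of animals per library is not known (the labels say 3x Males), both libraries name the same donor entry, and the tissue is a mixture of fibres, fibroblasts, vessels, nerve and tendon. A weaker peak can therefore come from fewer open cells or from less cutting per open cell, and these cannot be told apart.

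Each collagen molecule is built from a trio of alpha chains, alike or different, and each kind of chain is encoded by a Col gene of its own. Fibrillar collagens (types I, II, III, V, XI, XXIV and XXVII) assemble into the fibrils that give tendon, fascia and the muscle's connective sheaths their tensile strength. Type IV chains form the network of basement membranes, the thin sheet that surrounds every muscle fibre and capillary, with types VII, XV and XVIII beside it. Type VI forms beaded filaments next to that sheet, and mutations in human COL6A1, COL6A2 and COL6A3 cause Bethlem myopathy and Ullrich congenital muscular dystrophy. The remaining collagens decorate fibrils, span membranes or build short-chain networks. By class, 11 members were fibrillar, 9 belonged to the basement membrane, 6 were type VI and 18 were others.

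The sequences below come from open sites that carry much of what follows. They are shown on the strand of the gene, 5′ to 3′, with capitals on the bases that lay in footprints of both libraries. The first 4 are parts of promoter peaks that lie outside annotated exons and end at the base before the transcript start. At Col16a1 the peak extends further upstream, over bases annotated as exonic that were left out. They belong to Col5a1 (chr2:27886161-27886424, plus strand), Col5a3 (chr9:20815068-20815300, minus strand), Col6a3 (chr1:90843972-90844080, minus strand) and Col16a1 (chr4:130047775-130047839, plus strand), all in mm10, which has the coordinates of GRCm38.
Col5a1 promoter: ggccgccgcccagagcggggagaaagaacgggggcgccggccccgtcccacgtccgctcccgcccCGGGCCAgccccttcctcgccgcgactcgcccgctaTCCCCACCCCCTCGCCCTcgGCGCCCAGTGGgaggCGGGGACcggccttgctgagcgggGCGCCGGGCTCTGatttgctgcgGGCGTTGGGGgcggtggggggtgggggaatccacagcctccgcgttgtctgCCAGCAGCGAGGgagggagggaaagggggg
Col5a3 promoter: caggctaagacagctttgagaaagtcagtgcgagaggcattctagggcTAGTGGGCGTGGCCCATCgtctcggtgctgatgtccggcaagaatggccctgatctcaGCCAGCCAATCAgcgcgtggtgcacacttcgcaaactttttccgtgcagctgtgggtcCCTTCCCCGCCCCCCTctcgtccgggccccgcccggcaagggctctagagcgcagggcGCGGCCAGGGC
Col6a3 promoter: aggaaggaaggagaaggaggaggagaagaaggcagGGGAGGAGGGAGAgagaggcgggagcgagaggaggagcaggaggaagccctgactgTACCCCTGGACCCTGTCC
Col16a1 promoter: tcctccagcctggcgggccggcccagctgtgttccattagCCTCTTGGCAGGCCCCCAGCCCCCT
The other 2 are whole distal regions, shown because they are the strongest region near any collagen start (Col5a3, chr9:20831001-20831240, minus strand) and a region far upstream of Col1a2 (chr6:4488441-4488600, plus strand), where a far-upstream enhancer is known in the mouse.
Col5a3 distal region: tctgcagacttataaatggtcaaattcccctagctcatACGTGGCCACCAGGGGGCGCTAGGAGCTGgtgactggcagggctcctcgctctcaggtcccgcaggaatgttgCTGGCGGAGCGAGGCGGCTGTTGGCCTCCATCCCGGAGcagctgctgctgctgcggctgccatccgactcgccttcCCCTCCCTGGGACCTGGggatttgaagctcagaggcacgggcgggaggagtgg
Col1a2 distal region: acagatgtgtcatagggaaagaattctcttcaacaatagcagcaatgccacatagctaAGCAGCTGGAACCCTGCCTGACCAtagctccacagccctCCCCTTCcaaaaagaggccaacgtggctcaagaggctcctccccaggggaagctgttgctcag
The footprints shared by the libraries covered 78 of 264 bases at Col5a1, 57 of 233 at the Col5a3 promoter, 31 of 109 at Col6a3 and 25 of 65 at Col16a1. They covered 84 of 240 bases in the distal region of Col5a3 and 31 of 160 in that of Col1a2.

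These stretches were searched on both strands for 7 short motifs, namely the TATA box (TATAAA), the CCAAT box, the GC box (GGGCGG), the AP-1 motif (TGANTCA), the TEAD motif (GGAATG), the E-box (CAGCTG) and the SOX motif (ACAAAG). In the Col5a3 promoter a CCAAT box at positions 112 to 116, counted from 1 at the 5′ end of the printed stretch, and a GC box (GGGCGG on the other strand) at 171 to 176 lay wholly inside shared footprints, while a second GC box at 193 to 198 and a CAGCTG at 153 to 158 did not. CCAAT occurred in 38.7% and GGGCGG in 48.0% of the 300-base promoters of 16522 genes from RefSeq (GRCm38.p6), so both are common letters at mouse starts. In the distal region of Col5a3 matches to the TATA box, the GC box, the TEAD motif and the E-box all lay outside shared footprints. In that of Col1a2 a CAGCTG, an E-box of the kind that basic helix-loop-helix factors bind, stood at positions 61 to 66 inside a shared footprint. CAGCTG was present in 24.8% of windows of 160 bases centred on all 41807 distal regions. The Col16a1 promoter held CAGCTG outside shared footprints. Col5a1 held 3 GC boxes of which none lay wholly in a shared footprint, and the Col6a3 stretch held none of the 7 motifs. A match describes letters and not binding. Only 35 of the 44 genes (79.5%) had an entry in the promoter table, so no count of motifs over the collagen genes was made. The table lacked Col1a1, Col2a1, Col4a3, Col5a2, Col9a3, Col12a1, Col14a1, Col22a1 and Col26a1.

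The files held 82498 and 88198 strict peaks and 320456 and 384435 footprints. Replicate 1 had the higher peak signals, with a median ratio of 1.55 over all regions shared by the libraries (0.63 on the log2 scale). How the authors scaled the signal is unknown here, so genes were ranked within a library as a percentile among all protein-coding genes. Against the label, all 8 skeletal muscle markers had a promoter peak in both libraries (for example Ckm, muscle creatine kinase, at 12.1 and 3.36), and the 4 hepatocyte and keratinocyte genes examined (Alb, Apoa1, Krt5, Krt14) had none.

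A promoter was called open where a strict peak overlapped the 1 kb on either side of an annotated start in both libraries. Of the 44 collagen promoters 32 were open (72.7%), 4 had a peak in 1 library only and 8 had none. Over all protein-coding genes 61.7% were open and 3.51% had a peak in 1 library only. The fibrillar class was open at 10 of 11, the basement membrane class at 7 of 9, type VI at 5 of 6 and the others at 10 of 18. In the permissive peak list 36 of the 44 had a promoter peak in both libraries, against 65.7% of all genes. When peaks below their library's median signal were left out, the order turned, with 22 of the 44 open (50%) against 54.3% of all genes.

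Although most collagen promoters were open, their signals were modest. The median signal of the 32 open promoters was 2.13 and 1.36, against 6.16 and 3.51 for all open promoters. Col1a1, Col6a2 and Col16a1 alone of the 32 exceeded that median in both libraries, as 44.4% of all open promoters did. No collagen gene stood in the top decile of promoter signal in both libraries, where 6.94% of all genes stood. Each gene's percentile was averaged over the 2 libraries. The median of these means was 58.2 for fibrillar genes, 47.4 for type VI, 44.6 for the basement membrane class and 40.9 for the others. Over the 44 it was 45.2, against 50.1 for all genes. In single libraries the fibrillar median was lower, at 55.6 and 55.4.

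**Figure D1:**
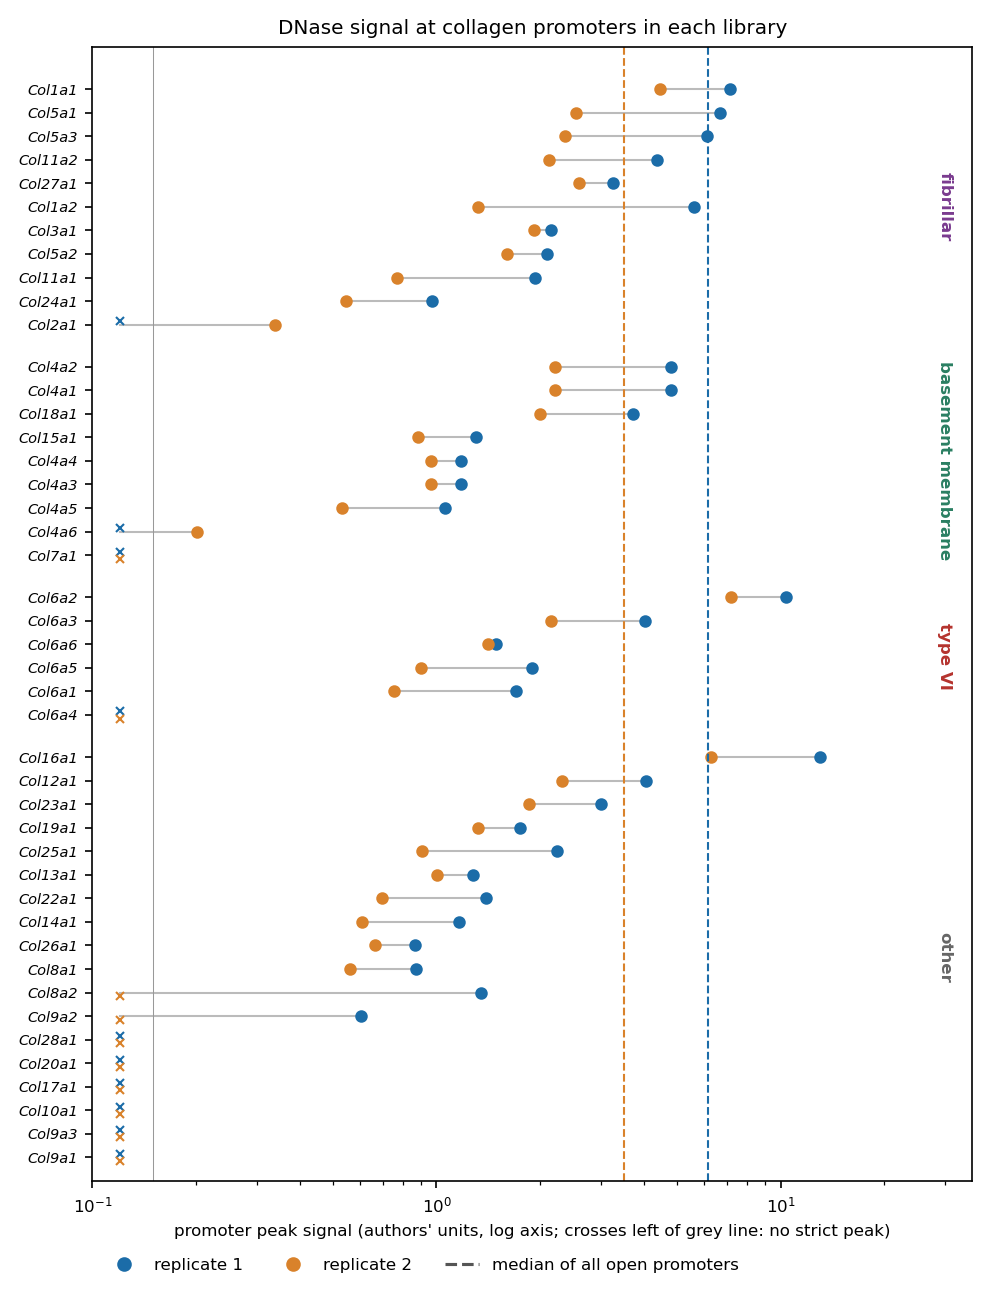
Signal of the strongest strict promoter peak of each collagen gene (log axis, the authors' units), 1 point per library, with crosses for genes without a strict peak in that library and dashed lines at the median of all open promoters (6.16 and 3.51). Points of both libraries lie right of their line only for Col1a1, Col6a2 and Col16a1.

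Among the fibrillar genes, those for the main chains of tendon and skin fibrils were led by Col1a1. Its promoter signal was 7.14 and 4.46, at percentiles 73.3 and 77.1. Col1a1 (chromosome 11, 94936224 to 94953042, plus strand) encodes the alpha 1 chain of type I collagen, the most abundant fibril protein. A peak lay over its start in both libraries (94936061 to 94936280 in replicate 1), and a second about 1 kb downstream (94937081 to 94937280 in replicate 2). Replicate 1 was highest at the start, with 4.16 at the downstream peak, and replicate 2 was highest downstream, with 2.77 at the start. Col1a2, which encodes the partner chain of type I, had 5.62 and 1.32. Relative to the median ratio of the libraries it was 1.47 higher in replicate 1 on the log2 scale, the only 1 of 32 open collagen promoters past 2-fold, while 3.83% of all open promoters were. Col3a1, the chain of the thin reticular fibrils of young and elastic tissue, had 2.16 and 1.92, below both type I genes in replicate 1 and between them in replicate 2.

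The type V genes, whose product sits in the core of type I fibrils and limits their diameter, gave 6.67 and 2.55 at Col5a1, 2.10 and 1.61 at Col5a2 and 6.12 and 2.36 at Col5a3. The peaks of Col5a1 and Col5a3 are those printed above. Col5a2 lies beside Col3a1 on chromosome 1, and their signals were close to each other in both libraries. Cartilage fibrils are made of types II and XI. Col2a1, the main chain of cartilage, had no strict promoter peak in replicate 1 and only 0.339 in replicate 2. In the permissive list its strongest promoter peak in replicate 1 was 0.753, with a lowest FDR of 0.00279. Inside the gene lay 2 distal regions shared by the libraries. Col11a1 had 1.93 and 0.766, and Col11a2 4.38 and 2.13, the latter at a peak centred 586 bases downstream of its start. Of 5 chondrocyte markers, Sox9 was open at 5.93 and 2.06 and Hapln1 at the low values of 0.412 and 0.367. Both libraries lacked a strict promoter peak at the other 3, Acan, Matn1 and Comp. Signals over this list summed to 6.34 and 2.43. The part of cartilage cells in the collagen values was not tested. Col27a1 (3.27 and 2.59) and Col24a1 (0.970 and 0.546), the shorter fibrillar collagens, completed the class.

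In the basement membrane class, type IV genes stand head to head in pairs. Col4a1 and Col4a2, which encode the ubiquitous chains found in every basement membrane, overlap at their starts on chromosome 8 (11312826 on the minus strand, 11312805 on the plus strand). The strongest peak was the same for both, with 4.79 and 2.21 (11312701 to 11312920 in replicate 1), so their equal values are 1 measurement. Col4a3 and Col4a4, chains of the kidney and lung membrane, also shared their strongest peak on chromosome 1 (82586761 to 82587160 in replicate 1), at 1.18 and 0.963, their nearest starts being 127 bases apart. The pair Col4a5 and Col4a6 on chromosome X, with starts 1309 bases apart, was uneven. Col4a5 had 1.06 and 0.532, while Col4a6 had no strict peak in replicate 1 and 0.202 in replicate 2. The order of the pairs was the same in both libraries. The tissue is from males, and signals on chromosome X were not adjusted for its copy number.

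The collagens beside the sheet also differed. Col18a1, whose C-terminal fragment is endostatin, had 3.72 and 2.00, at an inner start of the gene. Col15a1, a related proteoglycan collagen of muscle and capillaries, had 1.30 and 0.881. Col7a1, which forms the anchoring fibrils of skin, had no peak in either list and no base with an FDR under 0.05 within 1 kb of a start. Krt5 and Krt14, keratinocyte markers, were likewise without a promoter peak.

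Type VI was uneven among its chains. Col6a2 had 10.4 and 7.16, at percentiles 84.3 and 93.3, in a peak with the same bounds in both libraries (chromosome 10, 76623341 to 76623560). Col6a1, which encodes a chain of the same trimer, had only 1.70 and 0.752, and Col6a3, the third chain, 4.05 and 2.16. The 3 chains assemble in equal number, and their promoter signals had the order Col6a2, Col6a3, Col6a1 in both libraries. With a window of 2500 bases Col6a1 passed Col6a3, at mean percentiles of 70.7 and 57.0, with Col6a2 at 88.5. The chains that can take the place of alpha 3 were below Col6a3, with 1.90 and 0.899 at Col6a5 and 1.49 and 1.41 at Col6a6, the latter centred 854 and 864 bases downstream of a start. Col6a4 had no peak and no base with a listed FDR.

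Among the other collagens, Col16a1 had the highest mean percentile of all 44, with 13.0 and 6.28 at percentiles 90.8 and 89.2. Its peak had the same bounds in both libraries (chromosome 4, 130047741 to 130047920). Type XVI belongs to the fibril-associated group with interrupted triple helices (FACIT). In that group Col12a1, a component of fascia and tendon, had 4.06 and 2.32, Col19a1 1.75 and 1.32, Col22a1, found at the myotendinous junction, 1.39 and 0.693, and Col14a1 1.17 and 0.606. Type IX, which coats cartilage fibrils, had no peak in either library at Col9a1 and Col9a3, and at Col9a2 a peak of 0.602 in replicate 1 only. Col20a1 had none. Of 9 FACIT genes 5 were open.

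The membrane-spanning collagens were open at 3 of 4. Col23a1 had 3.00 and 1.86, Col25a1, which motor innervation of muscle requires in the mouse, 2.24 and 0.908, and Col13a1, which matures the neuromuscular synapse, 1.28 and 1.00. Col17a1, of the keratinocyte hemidesmosome, had no peak. Of the short-chain genes Col8a1, of vessel walls, had 0.870 and 0.560, Col8a2 had 1.35 in replicate 1 only, with 0.720 in the permissive list of replicate 2, and Col10a1, the marker of hypertrophic cartilage, had none. Col26a1 had 0.864 and 0.661. Col28a1, a collagen of peripheral nerve, had none. The genes Col6a4, Col7a1, Col9a1, Col10a1, Col17a1, Col20a1 and Col28a1 had no base with a listed FDR in the promoter window of either library.

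Footprints were found at all 32 open collagen promoters in both libraries, as at 99.1% of all open promoters. Their number had a median of 5 and 6 per gene, the same as over all open promoters, and they covered a median of 18.2% and 18.8% of peak bases, against 22.6% and 24.1%. Col1a1 held 11 and 10 over its 2 peaks, Col12a1 10 and 12, and Col23a1 9 and 16. Col11a2 held 18 and 3, the widest gap between libraries; replicate 1 had 4 strict peaks in its window and replicate 2 had 2. The strongest peak lay within 250 bases of a start for 26 and 24 of the 32 genes. The strongest peaks of the libraries overlapped at 30 genes, and did not at Col1a1 and Col23a1.

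CpG islands are typical of broadly expressed promoters, and many collagen starts were poor in CpG. The ratio of observed to expected CpG in the 300 bases at the first start had a median of 0.518 at the 32 open collagen promoters and 0.749 at all open promoters. At the 12 collagen genes not open in both libraries it was 0.191, close to the 0.188 of all such genes. Genes were then split by deciles of this ratio over all genes. In the lower 3 deciles 5 of 12 collagen promoters were open (41.7%), against 16.3% of all genes. In the middle 4 deciles 21 of 25 were open (84.0%, against 70.5%), and in the upper 3 deciles 6 of 7 (85.7%, against 95.4%). Col3a1 was open with no CpG in its window, and Col5a2 (0.102), Col6a3 (0.139) and Col6a2 (0.253) were open at low ratios. For Col6a2 this depends on the start, since the ratio was 0.557 at its RefSeq start, 80 bases from one of its 2 annotated starts.

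**Figure D2:**
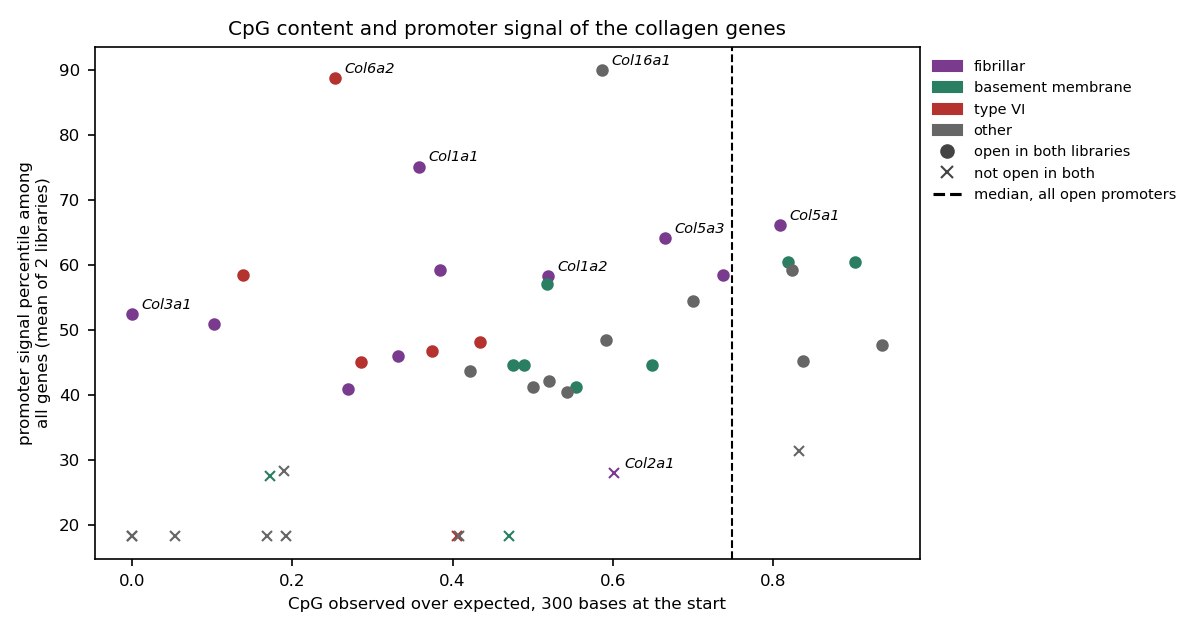
CpG observed over expected in the 300 bases at the first start of each collagen gene (x axis) against its promoter percentile, the mean of 2 libraries (y axis), with the median ratio of all open promoters dashed (0.749). Most open collagen genes (circles) lie left of the line, Col6a2 and Col1a1 among them. The percentile uses the strongest peak at any start, which at Col18a1 was an inner start and not the first.

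Distal regions were those shared by the libraries that lay beyond 1 kb of every annotated start, of coding and noncoding genes alike. A gene was credited with those within 50 kb of a start. Around the 44 genes lay 173 of them, 76 in introns and 2 in exons of the collagen gene with the nearest start, 9 in another collagen gene, 10 in other genes and 76 outside protein-coding genes. At least 1 was found at 37 genes (84.1%), against 72% of all genes, and 4 genes had 10 or more (9.09%, against 2.89%). The mean per gene was 4.16, against 2.59 for all genes. Collagen genes are long, with a median of 114 kb against 17.4 kb. Counted by length, regions per 100 kb of gene body had a median of 2.63 in collagen genes and 1.24 in all genes of 20 kb or more. A footprint in both libraries lay in 166 of the 173 regions (96.0%, against 96.3% of all distal regions). Their median signal was 1.56 and 1.11, against 1.27 and 0.927.

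**Figure D3:**
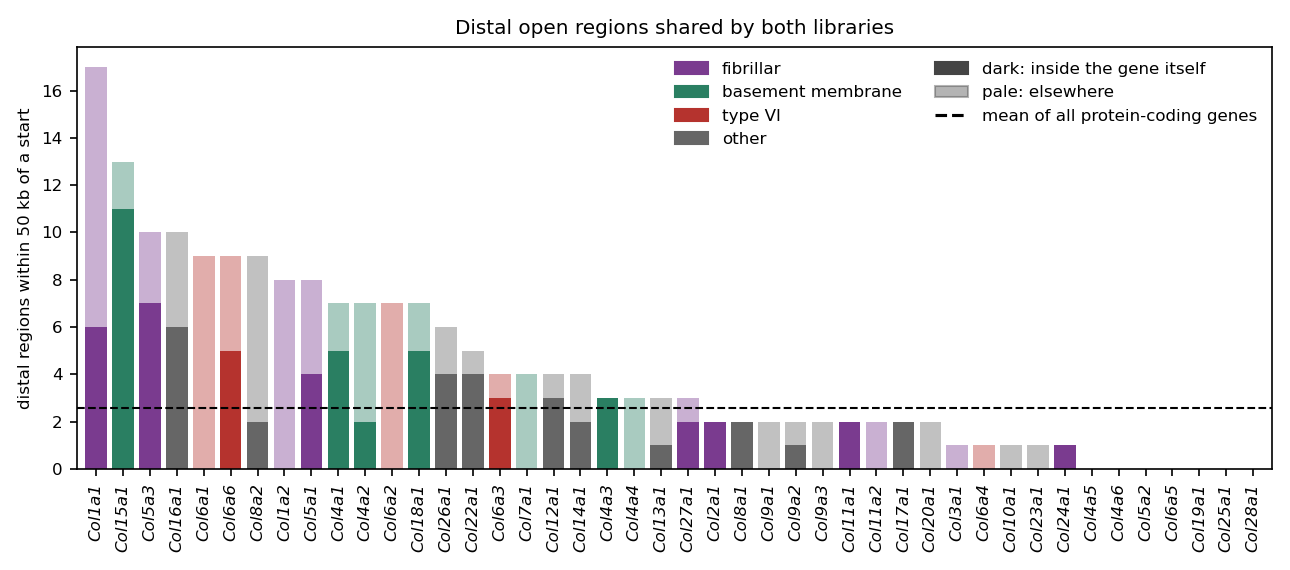
Distal regions open in both libraries within 50 kb of a start, per collagen gene, coloured by class, with the part inside the gene itself in dark and the mean of all protein-coding genes (2.59) dashed. Col1a1 has 17 and Col15a1 13, and 7 genes have none.

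Col1a1 had the most, with 17 regions, more than 99.8% of all genes, and its own start was the nearest protein-coding start for 15 of them. Of the 17, 6 lay inside the gene, which is only 16.8 kb long. The strongest upstream was at chromosome 11, 94928861 to 94929140, 7223 bases before the start, with 11.4 and 3.86. It was above the promoter peak in replicate 1 and below it in replicate 2. The strongest downstream (94979041 to 94979220, 42907 bases after the start, 11.0 and 7.68) lies nearer to the start of Sgca, the sarcoglycan gene of the muscle membrane, at 2804 bases. Regions at 20323 and 22333 bases upstream had 4.93 and 2.47, and 2.56 and 1.36. Col1a2 had 8 regions, none of them inside the gene, of which those at 16972 bases (4.09 and 2.08, printed above) and 47632 bases upstream (3.59 and 2.56) were highest.

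Col15a1 had 13 regions, 11 of them within the gene, although its promoter signal was low. The highest were intronic, at chromosome 4, 47234981 to 47235220 (4.49 and 4.01) and 47293861 to 47294080 (5.65 and 1.76), the latter 5902 bases after an inner start. Both exceeded the promoter in both libraries. Col5a3 had 10 regions, 7 inside the gene. The strongest distal region of all 173 lay 16054 bases upstream of Col5a3, with 14.1 and 8.83, though the start of Rdh8, a retinol dehydrogenase gene, was nearer at 12618 bases. Col16a1 also had 10, among them an intronic region of 4.30 and 2.50, the highest in replicate 1, and one of 3.54 and 6.13, the highest in replicate 2 and nearer to the start of Pef1. Col6a1 had 9, none of them inside the gene. Those at 2393 bases (4.72 and 4.89) and 6843 bases upstream (4.78 and 2.01) were the highest in replicate 2 and replicate 1, and both were above its promoter in both libraries. Col8a2, whose promoter had a strict peak in 1 library only, had 9, of which 7 lie nearer to the start of another gene. Among those 7 are an intronic region of 5.38 and 4.87, nearer to Adprhl2, and one of 9.48 and 2.73 at 1334 bases from the start of Trappc3.

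Of the 32 open collagen genes, 9 had a distal region with a higher signal than their own promoter in both libraries, where 16.5% of all open genes did. These were Col1a1, Col5a3, Col6a1, Col6a6, Col13a1, Col14a1, Col15a1, Col18a1 and Col26a1. At Col1a1 and Col5a3 the only such region lay nearer to the start of another gene, Sgca and Rdh8 respectively. At Col13a1 the only such region lay 1523 bases upstream (4.12 and 6.05). At Col14a1 the strongest lay 1259 bases upstream (2.41 and 3.71), and both were just outside the promoter window. At Col18a1 the strongest was intronic (4.02 and 6.14) and at Col26a1 it lay 1560 bases downstream (2.49 and 4.49). Col14a1, Col18a1 and Col26a1 each had further such regions. Examples lay 38979 bases upstream of Col14a1 (2.20 and 1.74) and 44953 bases upstream of Col18a1 (3.88 and 2.29). Col4a5, Col4a6, Col5a2, Col6a5, Col19a1, Col25a1 and Col28a1 had no shared distal region. In addition, 3 regions were counted for both Col4a3 and Col4a4 and 7 for both Col4a1 and Col4a2.

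**Figure D4:**
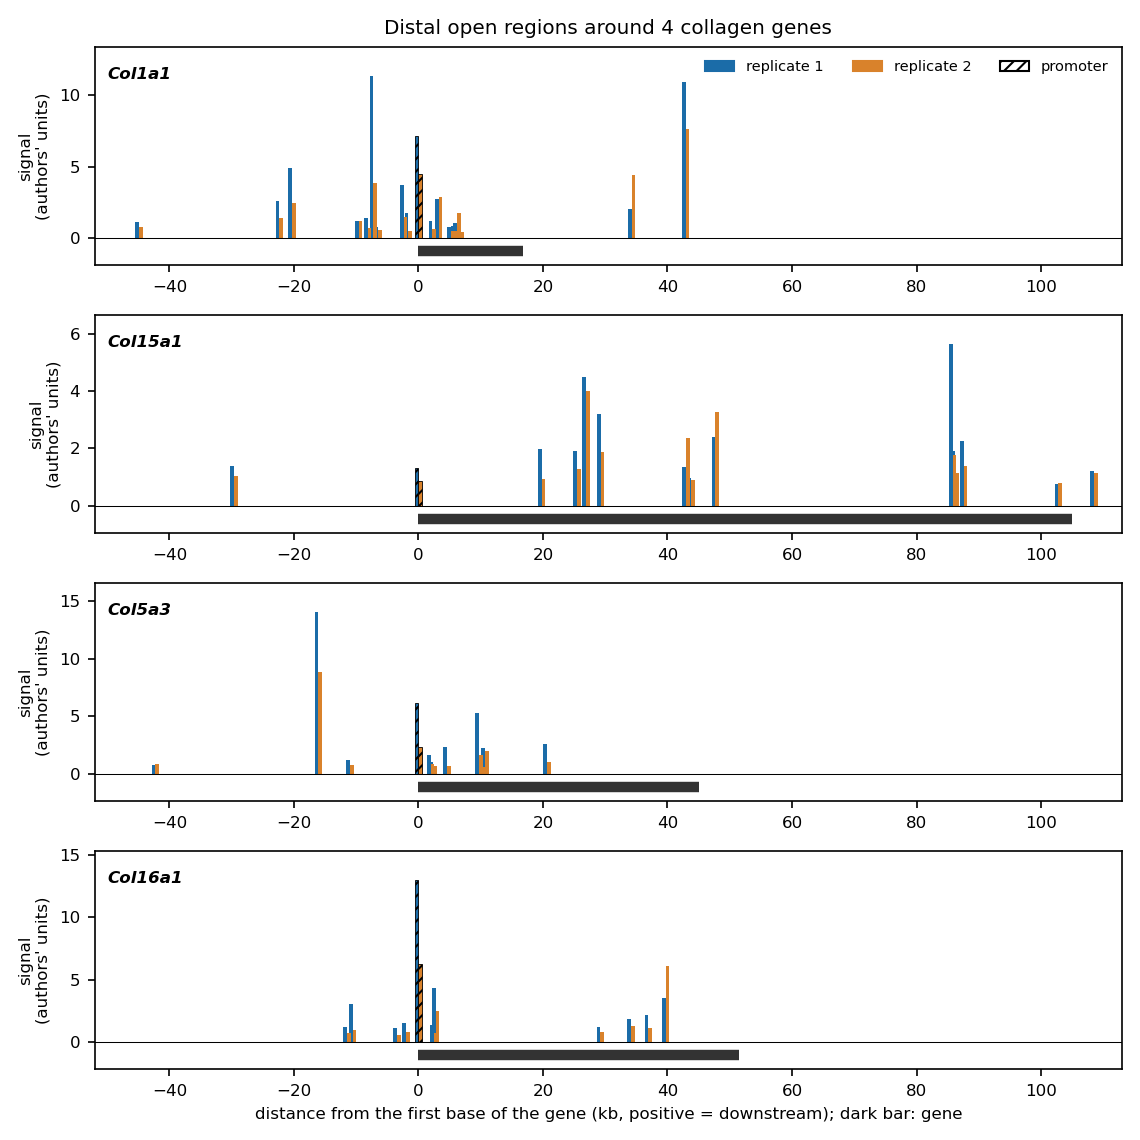
Signal of distal regions in each library (bars) by distance from the first base of 4 collagen genes, with the strongest promoter peak drawn at 0 (hatched) and the gene as a dark bar. The bars of Col1a1 lie on both sides of the gene, and those of Col15a1 mostly inside it, with 11 of 13 in the gene body.

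Of 50 genes whose products make, trim, bind or remove collagen, 45 (90%) were open in both libraries, beside 32 of the 44 collagen genes and 61.7% of all genes. Of 18 genes for hydroxylation and folding 17 were open, the highest by mean percentile being P4hb (24.9 and 9.95) and P4ha1 (21.5 and 8.50), the subunits of prolyl 4-hydroxylase, and P3h1 (14.5 and 8.96), which hydroxylates proline at another position. Serpinh1, the collagen chaperone, had 7.41 and 3.14. Of 13 trimming and cross-linking genes 12 were open, among them Pcolce (7.15 and 1.83) and Bmp1 (4.15 and 2.24), which act on procollagen C-propeptides, and the exception was Loxl2, a lysyl oxidase relative. All 10 receptor genes were open, including the integrin gene Itgb1 (12.6 and 5.12) and the collagen-activated kinases Ddr1 (8.32 and 2.89) and Ddr2 (3.54 and 3.40). Of 9 turnover genes 6 were open, with Timp2, an inhibitor of matrix proteases, at 6.92 and 4.67, while the proteases Mmp9 and Mmp13 had no peak and Ctsk had one in replicate 2 only.

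The cells that make collagen in muscle are chiefly fibroblasts, and 6 of 8 fibroblast markers were open (75%, against 61.7% of all genes). The signals of the 8 summed to 27.4 and 14.8. Lum (0.555) and Ly6a (0.413) had a peak in replicate 2 only. Pdgfra, of fibro-adipogenic cells, had 3.86 and 2.92, and Dcn, a fibril-binding proteoglycan, 1.44 and 0.830. The 5 tendon markers, 3 of them open (60%), summed to 9.29 and 5.08. Tnmd, a marker of mature tendon, had no peak, and Fmod had 1.45 in replicate 1 only. The 4 endothelial markers, 3 open (75%), summed to 3.99 and 3.88. Pecam1 had 0.495 in replicate 2 only. The 8 skeletal muscle markers summed to 63.7 and 21.8. The lists differ in length, so the sums were not compared between lists. Which cells gave the collagen peaks was not tested.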

How the data were processed

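DNase-seq of 2 libraries of 1 group was analysed without reads, from peaks, footprints and FDR tracks as deposited, so the sequencing depth behind each value is unknown. Per the file headers, each list was made by the authors from the alignment of that library alone, on mm10. Reads of a hybrid strain were thus placed on a C57BL/6 assembly. The signal of a peak (column 7) is the authors' deposited value, and the sources used here name neither its scaling nor the aligner, the callers and their versions. The deposited FDR values are q-values per base listed under 0.05, and the footprint threshold in the deposited lists is constant at 0.01. Per the labels, replicate 1 was sequenced on 2 instrument models. Each library had 2 peak lists, and the list with fewer peaks (strict) was used, the other (permissive) being an alternative. In the strict lists the 64 peaks per library at collagen promoters reached an FDR of 0.000525 and 0.000534 or lower.

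Genes and starts came from GENCODE M21 (basic set, GRCm38), where 27 genes shared a symbol with another and were kept once per symbol. A promoter was 1 kb on either side of any start, its signal that of the strongest peak overlapping it by at least 1 base, and percentiles are among all 21911 symbols. All collagen genes are named. Results for 1 distal region and 1 marker list are not reported here. The classes follow the type of chain, and the gene lists, members and motifs were chosen with earlier results of these data known. No test was run, since there is 1 group, and counts over the collagen genes stand beside the same counts over all genes. The alternatives were 250 or 2500 bases around a start, 20 or 100 kb for distal regions, gene bodies only, the permissive list, peaks at or above the median signal, summed peaks, other choices of start, and each library alone. The density of regions per gene body and the split by CpG were added after the data were seen. The overlap code was tested on simulated data. Python 3.11.15, pandas 2.3.3, numpy 2.4.6, pysam 0.24.0 and matplotlib 3.10.9 were used.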

Additional observations from a re-analysis of the deposited data

How the results depend on the processing

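Of the comparisons of a summary value with an alternative, 79 stayed within their limit (a factor of 1.5 for counts, 1 SD between libraries for other values) and 28 did not. For single genes these numbers were 138 and 54. The 32 open collagen promoters became 31 with a window of 250 bases, 34 with 2500 bases, 36 with the permissive list and 34 in each library alone. Only peaks at or above the median signal left 22 (50%, against 54.3% of all genes), with 4 in the basement membrane class and 6 among the others. The 173 distal regions became 83 within 20 kb, 303 within 100 kb, 283 with the permissive list and 93 at or above the median signal, and the mean of 4.16 per gene became 1.95, 7.66, 6.80 and 2.27. All genes went from 2.59 to 1.05 within 20 kb and 5.11 within 100 kb. Footprints at open promoters, 190 per library on average, fell to 112 when only those overlapping one of the other library were counted. Footprints were summed per gene, so those in a peak shared by Col4a1 and Col4a2, or by Col4a3 and Col4a4, counted for each. The median percentile of the collagen genes, 45.2, became 46.7 with 250 bases and 45.9 with 2500 bases. For the fibrillar class it was 53.8 with summed peaks, 54.8 with 250 bases and 56.7 with 2500 bases. With 250 and 2500 bases it was 47.2 and 42.3 for the basement membrane class, 48.4 and 51.5 for type VI, and 38.4 and 42.7 for the others, where summed peaks gave 41.6. In single libraries it ranged from 45.1 to 45.4 over all 44, 55.4 to 55.6 for the fibrillar class, 43.2 to 46.0 for the basement membrane class, 47.4 to 48.1 for type VI and 40.8 to 41.8 for the others. The main values are medians of per-gene means over the libraries. They need not lie between the single-library medians, and the 58.2 of the fibrillar class did not. Beyond this, the cause of the shifts was not tested. No paired analysis was possible because the libraries form 1 group.

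With 2 libraries of unknown depth, the absence of a peak says only that none was called, and the spread between libraries rests on 2 values.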
